A study of Mus musculus with 9 samples.

Results

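Expression of the interleukin 6 (IL-6) cytokine family was examined in microdissected lung alveolar cells of young mice, aged mice and aged mice given an inhibitor of the pyruvate dehydrogenase kinase PDK4. The family was taken as 10 genes, found by gene name among the 55414 genes listed: 5 ligands (Il6, Il11, Lif, Osm and Clcf1), 4 receptor chains (Il6ra, Il6st, Lifr and Osmr) and 1 feedback inhibitor (Socs3). Each name matched 1 gene, and all 10 passed the filter on low counts, although Osm did so through its counts in the Aged group.

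All mice were wild-type C57BL/6J males, and the cells, labelled as lung fibroblasts of stromal type, were cut out of snap-frozen pulmonary alveolus by laser capture microdissection and combined before RNA preparation. The 3 groups were Young (mice whose age the labels do not give), Aged (mice that aged naturally to 20 months and then received vehicle) and the PDK4-IN group (mice of the same age that received PDK4-IN, an anthraquinone derivative that inhibits PDK4). Both aged groups were dosed at intervals of 2 weeks for 4 months and were examined at 24 months. No dosing is recorded for Young, so in Aged against Young the effect of age cannot be told apart from that of vehicle dosing. Each group had 3 RNA-seq libraries, and library totals ran from 19456354 to 26660419 counts. The labels do not say whether the libraries of a group came from separate mice, so that the p-values reflect only how far these libraries differ, and that spread may be technical. Levels are given as CPM, the counts of a gene scaled to the total of its library.

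IL-6 family cytokines bind a private receptor chain and then signal through the shared chain gp130, the product of Il6st. IL-6 and IL-11 bring gp130 molecules together, whereas LIF, oncostatin M and CLCF1 pair gp130 with the LIF receptor or, for oncostatin M, with its own receptor OSMR. The receptor-bound JAK kinases then phosphorylate STAT3, which moves to the nucleus and turns on its target genes, among them Socs3, whose protein binds gp130 and shuts the signal off. In the lung these cytokines act on fibroblasts, epithelium and leukocytes, and IL-6 is a well-known component of the senescence-associated secretory phenotype, the set of factors that senescent cells release.

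The bases upstream of the transcription start are shown for Il6, Lif and Socs3, the members that differed in both main comparisons and had an entry in the RefSeq promoter table (GRCm38.p6 build, an older build than that of the counts). Each stretch holds the 250 bases before the start, printed 5′ to 3′ on the strand of the gene, and capitals mark matches to 4 short motifs searched on both strands. The motifs were TTCNNNGAA for STAT factors, GGGA and TTCC with any 2 bases between them for NF-kB, TGANTCA for AP-1 and TTGCNNAA for C/EBP proteins.
Il6 (chr5:30012864-30013113, plus strand): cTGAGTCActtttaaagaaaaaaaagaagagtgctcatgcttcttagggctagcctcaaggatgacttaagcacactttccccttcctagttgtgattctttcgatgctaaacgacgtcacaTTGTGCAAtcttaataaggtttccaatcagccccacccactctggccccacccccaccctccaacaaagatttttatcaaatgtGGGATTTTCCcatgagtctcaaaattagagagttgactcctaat
Lif (chr11:4257318-4257567, plus strand): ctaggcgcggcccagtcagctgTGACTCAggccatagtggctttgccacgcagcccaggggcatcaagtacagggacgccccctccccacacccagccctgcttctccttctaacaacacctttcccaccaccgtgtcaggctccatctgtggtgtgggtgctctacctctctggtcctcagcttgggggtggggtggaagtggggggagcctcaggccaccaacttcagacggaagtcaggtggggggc
Socs3 (chr11:117969367-117969616, minus strand): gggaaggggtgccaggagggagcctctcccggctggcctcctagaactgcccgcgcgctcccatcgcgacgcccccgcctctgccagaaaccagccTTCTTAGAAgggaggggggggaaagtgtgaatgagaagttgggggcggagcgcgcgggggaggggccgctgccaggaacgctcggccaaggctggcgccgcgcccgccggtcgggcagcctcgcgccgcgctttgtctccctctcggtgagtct
The Il6 stretch held 1 match each to the NF-kB, AP-1 and C/EBP motifs, of which the NF-kB match lay nearest the start, at -44 to -35. The Lif stretch held an AP-1 match at -228 to -222, and the Socs3 stretch held a STAT match at -154 to -146. Among all 32851 stretches of this length in the table, 7.02% held the STAT motif, 1.21% the NF-kB motif, 6.75% the AP-1 motif and 9.56% the C/EBP motif. Of the other 5 members in the table, Il11 held an AP-1 match upstream of 1 of its 2 start sites, and Il6ra, Il6st, Lifr and Osmr held none of the 4 motifs. Osm and Clcf1 had no entry. A match is a run of letters and not a measured binding site.

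Il6, Lif and Socs3 rose with age and fell again with PDK4-IN, and Osm was counted almost only in Aged. In Aged against Young, 5 members rose (Il6, Lif, Osm, Osmr and Socs3), 2 fell (Il11 and Lifr) and 3 did not pass the test, while 40.4% of all 16123 genes tested were called. In the PDK4-IN group against Aged, no member rose, 6 fell (Il6, Lif, Osm, Clcf1, Il6st and Socs3) and 4 did not pass, where 49.6% of 16275 genes were called. The number that rose there was also 0 at an unadjusted p under 0.05 in edgeR. It was 0 as well at an adjusted p under 0.05 with DESeq2 and with limma on log2(TPM + 1). The PDK4-IN group against Young had 1 member higher (Socs3), 3 lower (Clcf1, Il6st and Lifr) and 6 not called, where 29.0% of 16553 genes were called (2202 higher and 2594 lower, or 2819 and 2026 with upper quartile scaling). Genes were called at an adjusted p under 0.05 in the edgeR quasi-likelihood test, and the shares called by direction, higher and lower, were 21.4% and 19.0% for Aged against Young, 23.9% and 25.7% for the PDK4-IN group against Aged, and 13.3% and 15.7% for the PDK4-IN group against Young. Osm passed the filter only through Aged, the group in which it is high, and had to differ. Without it, 4 of 9 members rose and 2 fell with age (median log2 fold change 0.14), 5 of 9 fell with PDK4-IN (-0.25), and the PDK4-IN group against Young kept 1 higher and 3 lower (-0.09). The median log2 fold change of the 10 members in these comparisons was 0.22, -0.28 and -0.07, beside 0.01, -9e-04 and 0.02 over all genes tested. The comparisons share libraries, so a gene that stands apart in the Aged group enters the first and the second with opposite signs.

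**Figure D1:**
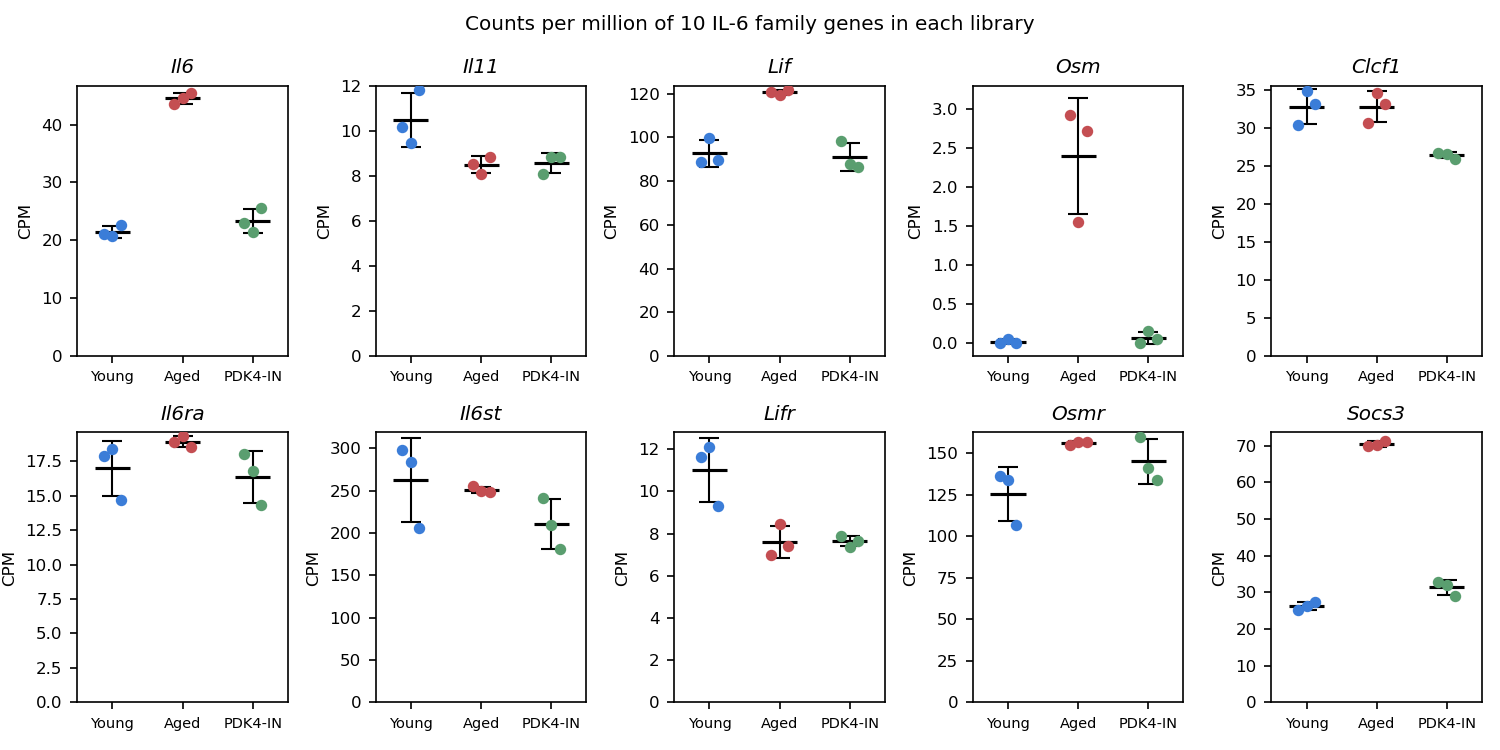
Level (CPM) of the 10 members in each library, grouped on the x axis as Young, Aged and PDK4-IN. Points are single libraries, and bars are the mean and SD of 3 libraries. The 3 Aged libraries stand above the other 6 for Il6, Lif, Osm and Socs3, and Young 3 and PDK4-IN 3 are the lowest libraries of their groups for Il6ra, Il6st and Osmr.

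**Figure D2:**
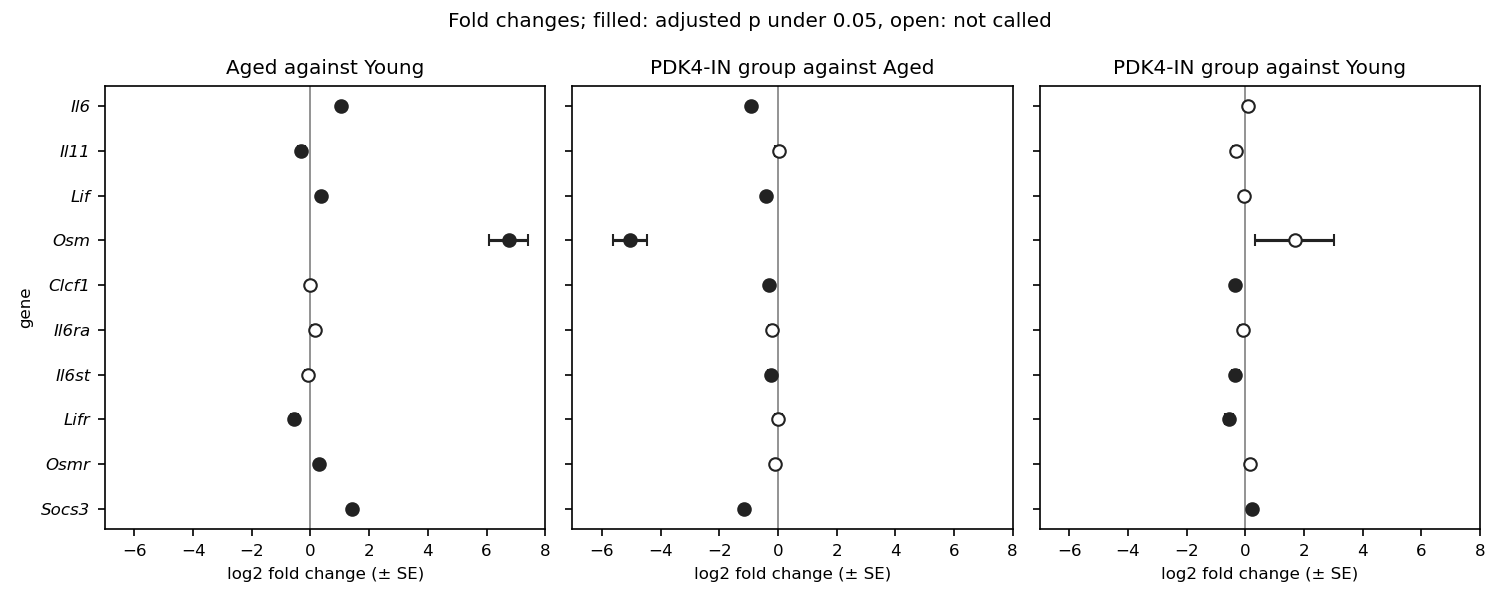
Fitted log2 fold change of each member (y axis) in the 3 comparisons, with its SE, which is smaller than the point for most genes. Filled points were called at an adjusted p under 0.05 and open points were not. Osm has the largest change of the 10 members in the first 2 comparisons and the widest errors.

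Among the ligands, Il6, the cytokine that drives the acute-phase response, was at 21.1, 20.7 and 22.6 CPM in the Young libraries, at 43.6, 44.5 and 45.4 CPM in the Aged libraries and at 23.0, 21.5 and 25.5 CPM in the PDK4-IN libraries. The Aged libraries all lay above the other 6, and the Young and PDK4-IN libraries overlapped. Il6 rose 2.055-fold with age (log2 fold change 1.04 ± 0.07 SE, adjusted p = 6.1e-07, n = 3 per group). It fell with PDK4-IN (log2 fold change -0.92 ± 0.08, adjusted p = 3.1e-06), and the difference between the PDK4-IN group and Young did not pass the test (0.09 ± 0.08, adjusted p = 0.427).

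Osm encodes oncostatin M, which in the lung and elsewhere is made mainly by leukocytes. It had a single count in Young, in library Young 2, had 78, 36 and 56 counts in the Aged libraries (2.93, 1.55 and 2.71 CPM), and had 0, 3 and 1 counts in the PDK4-IN libraries. Thus nearly all counts of this ligand came from the Aged group, in which its level was still low. The ratio of the summed levels was 146 for Aged to Young, from 170 counts against 1, with a 95% exact counting interval from 25.9 to 5820. It was 35.9 for Aged to the PDK4-IN group (13.8 to 133, from 170 counts against 4) and 4.08 for the PDK4-IN group to Young (0.403 to 201). These intervals cover counting error only. The edgeR fit called Osm in both comparisons with Aged (adjusted p = 1.8e-05 and 4.4e-05), but since the filter let it in through Aged alone these calls add nothing to the counts, and its 2 low groups were not told apart (adjusted p = 0.372). The fitted log2 fold changes, 6.75 ± 0.67 and -5.04 ± 0.59, moved to 8.72 without Young 2 and to -6.28 without PDK4-IN 2, the libraries that hold most of the counts of the low groups. Over all 15 alternatives they ran from 1.43 to 8.72 and from -6.28 to -1.39, so other settings also made them much smaller.

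Lif encodes leukaemia inhibitory factor and lies next to Osm on chromosome 11. It was at 88.7, 99.8 and 89.7 CPM in Young, at 120.8, 119.4 and 121.5 CPM in Aged and at 98.4, 87.9 and 86.6 CPM in the PDK4-IN group. As for Il6, every Aged library was above the other 6, but the change was smaller. Lif rose 1.29-fold with age (log2 fold change 0.37 ± 0.06, adjusted p = 8.3e-04) and fell with PDK4-IN (-0.40 ± 0.06, adjusted p = 1.8e-04). The call for age was lost in the limma fit to log2(TPM + 1), the deposited length-scaled values (0.27, adjusted p = 0.148).

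Clcf1, which encodes cardiotrophin-like cytokine factor 1, followed another course. Its levels were 30.4, 35.0 and 33.2 CPM in Young, 30.7, 34.7 and 33.2 CPM in Aged, and 26.8, 26.6 and 26.0 CPM in the PDK4-IN group. The Young and Aged libraries overlapped fully and every PDK4-IN library lay below them. The age difference did not pass the test (log2 fold change -0.01 ± 0.08, adjusted p = 0.918), whereas Clcf1 was lower with PDK4-IN than in Aged (-0.30 ± 0.07, adjusted p = 0.00455) and than in Young (-0.34 ± 0.08, adjusted p = 0.00574).

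Il11, a ligand linked to fibroblast activation, was at 10.2, 9.47 and 11.8 CPM in Young, at 8.55, 8.09 and 8.87 CPM in Aged and at 8.08, 8.84 and 8.85 CPM in the PDK4-IN group. Both aged groups lay below Young and overlapped each other. Its fall with age was close to the threshold (log2 fold change -0.32 ± 0.11, adjusted p = 0.0492) and was called in 6 of 15 alternative settings. Leaving out 1 library removed the call for 5 of the 6 libraries, all but Young 2, with an adjusted p from 0.0645 to 0.149. The PDK4-IN group against Young had about the same size of difference (-0.32 ± 0.11, adjusted p = 0.0538).

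Of the 4 receptor chains, Il6st, which encodes the shared chain gp130, was at 297.4, 284.1 and 205.8 CPM in Young, at 255.2, 249.8 and 247.8 CPM in Aged and at 241.0, 209.5 and 181.4 CPM in the PDK4-IN group. The Young libraries spanned the Aged ones, and every PDK4-IN library lay below every Aged library. The age difference did not pass the test (log2 fold change -0.08 ± 0.11, adjusted p = 0.614), but without Young 3 it was -0.23 with an adjusted p of 3.3e-06. Il6st was lower with PDK4-IN than in Aged (-0.25 ± 0.08, adjusted p = 0.0215). That call was lost in 6 of 15 alternatives, among them those without Aged 1, Aged 2, Aged 3 or PDK4-IN 2 (adjusted p from 0.0599 to 0.0773). Il6st was also lower than in Young (-0.35 ± 0.12, adjusted p = 0.0473). This was lost in 8 of 15 alternatives, among them those without Young 1, Young 2, PDK4-IN 2 or PDK4-IN 3 (0.114 to 0.178).

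Il6ra encodes the chain that binds IL-6 itself and that can also be shed to act on other cells. It was at 17.9, 18.4 and 14.7 CPM in Young, at 18.9, 19.3 and 18.5 CPM in Aged and at 18.0, 16.8 and 14.3 CPM in the PDK4-IN group. The Aged libraries were above all others, but no comparison passed the test (log2 fold change 0.14 ± 0.09 with age, adjusted p = 0.265, and -0.20 ± 0.09 with PDK4-IN, adjusted p = 0.0865). Without PDK4-IN 1 the second was called (-0.24, adjusted p = 0.0301).

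Osmr encodes the oncostatin M receptor chain, which is well known from fibroblasts, and Lifr encodes the LIF receptor; their genes are neighbours on chromosome 15. Osmr was at 136.2, 134.0 and 106.9 CPM in Young, at 155.1, 156.9 and 156.9 CPM in Aged and at 159.9, 141.4 and 134.0 CPM in the PDK4-IN group. The Aged libraries lay above Young, and the PDK4-IN libraries overlapped both groups. Osmr rose with age (log2 fold change 0.30 ± 0.08, adjusted p = 0.0157), but without any 1 of the 3 Aged libraries the adjusted p was between 0.0521 and 0.0600. The call was also lost with limma on log2(TPM + 1) (adjusted p = 0.0855). Its difference between the PDK4-IN group and Aged was -0.10 ± 0.06 (adjusted p = 0.191), which was called without PDK4-IN 1 (-0.14, adjusted p = 0.00539), and that between the PDK4-IN group and Young was 0.18 ± 0.09 (adjusted p = 0.149).

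Lifr was at 11.6, 12.1 and 9.30 CPM in Young, at 6.98, 8.46 and 7.41 CPM in Aged and at 7.88, 7.38 and 7.66 CPM in the PDK4-IN group. All 6 libraries of aged mice lay below the 3 Young ones and the aged groups overlapped. By read counts Lifr fell with age (log2 fold change -0.55 ± 0.13, adjusted p = 0.00722) and was lower in the PDK4-IN group than in Young (-0.56 ± 0.12, adjusted p = 0.00615), while the PDK4-IN group and Aged differed by 0.01 ± 0.12 (adjusted p = 0.934). The deposited TPM values did not show this: Lifr was at 3.96, 2.24 and 1.51 TPM in Young and at 1.29, 5.14 and 1.49 TPM in Aged, and the limma fit to log2(TPM + 1) gave -0.07 with an adjusted p of 0.921. The ratio of count to TPM implies a gene length. It was divided by the listed length, and then by the median of this quotient over 9122 well-counted genes of the library. For Lifr the result moved between 0.675 and 2.64 from library to library, whereas for Socs3 it stayed between 1.05 and 1.07. It was 1.88 to 2.41 for Il6ra and 1.81 to 1.91 for Il6st, so their TPM values rest on lengths other than the listed ones.

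Long and short genes did not keep the same balance in all libraries. The log2 level of all genes in a library, set against their mean over the series, was regressed on log2 gene length, and the slope was 0.07 and 0.06 for Young 1 and Young 2, -0.06 for Young 3, 0.05 to 0.07 for the Aged libraries, and -0.01, -0.10 and -0.14 for PDK4-IN 1, 2 and 3. Young 3 and PDK4-IN 3 were also the lowest libraries of their groups for Il6st, Osmr and Il6ra. With this trend removed, an alternative chosen after seeing the data, Il6st was no longer called with PDK4-IN (log2 fold change -0.11, adjusted p = 0.0877), while in the PDK4-IN group against Young Osmr was called higher (0.29, adjusted p = 0.00104) and Il11 lower (-0.36, adjusted p = 0.0182). The other members kept their calls, or stayed uncalled, in all 3 comparisons with the trend removed.

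Socs3, the feedback inhibitor, gave the lowest adjusted p of the 10 members in both main comparisons. It was at 25.2, 26.3 and 27.4 CPM in Young, at 70.0, 70.2 and 71.3 CPM in Aged and at 32.9, 32.1 and 29.1 CPM in the PDK4-IN group. The 3 groups did not overlap: Aged was far above the others, and every PDK4-IN library was somewhat above every Young library. Socs3 rose 2.66-fold with age (log2 fold change 1.41 ± 0.06, adjusted p = 2.4e-08) and fell with PDK4-IN (-1.16 ± 0.06, adjusted p = 5.5e-08). The remaining difference from Young was called (0.22 ± 0.07, adjusted p = 0.0249) but was lost in 7 of 15 alternatives, among them those without Young 1, Young 2, PDK4-IN 1 or PDK4-IN 2 (adjusted p from 0.0833 to 0.135).

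By the ranges of CPM alone, 6 members lay above Young in all Aged libraries, 2 lay below and 2 overlapped, where 53.1% of all genes tested did not overlap (29.1% above and 23.9% below). In the PDK4-IN group, 7 members lay below Aged and 3 overlapped it, where 58.4% of all genes did not overlap (30.0% below). Against Young 1 lay above, 3 below and 6 overlapped, where 37.7% of all genes did not overlap (22.4% above and 15.3% below). The counts with Aged include Osm, which had to differ because of the filter. Il6 and Socs3 kept their calls in all 15 alternatives of Aged against Young. In the PDK4-IN group against Aged, Il6, Lif, Clcf1 and Socs3 did so in all 15. Osm was called in all of these as well, which adds nothing, since it passed the filter through Aged alone.

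The levels of different genes were compared on the deposited TPM scale, which divides by gene length. In Young the order of the mean levels was Il6st (46.8 TPM), Lif (41.8), Osmr (36.1), Il6 (33.4), Clcf1 (26.2), Socs3 (16.2), Il11 (9.22), Il6ra (4.32), Lifr (2.57) and Osm (0.01). The ranges of neighbours in this order overlapped from Il6st down to Il6, and again for Il6ra and Lifr. In Aged, Il6 was first at 70.2 ± 1.17 TPM (SD, n = 3) with no overlap with Lif (50.2 ± 2.56 TPM), and Osmr (44.6 TPM), Il6st (44.6 TPM) and Socs3 (44.5 TPM) could not be ordered. In the PDK4-IN group, Osmr (36.8 TPM), Lif (34.5 TPM), Il6 (33.6 TPM) and Il6st (32.9 TPM) overlapped as neighbours at the top, and Socs3 was back at 17.7 ± 1.98 TPM, overlapping Clcf1 (18.7 ± 0.96 TPM). In every group the transcript of the signalling chain, Il6st, was thus several times more abundant per length than that of the IL-6-binding chain, Il6ra (4.69 TPM in Aged and 3.36 TPM in the PDK4-IN group).

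**Figure D3:**
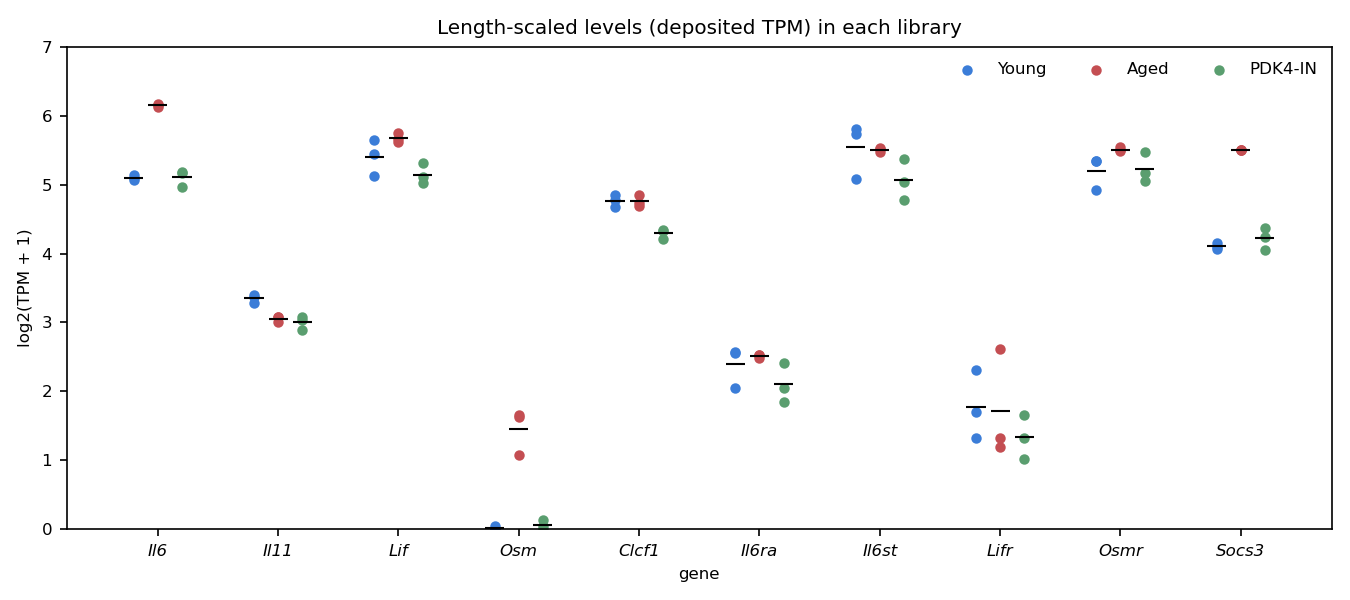
Deposited TPM values of the 10 members in each library, on the scale log2(TPM + 1), with genes on the x axis and the groups side by side in colour. Points are libraries and short lines are group means. Il6 moves from the middle of the high genes in Young to first place in Aged, Osm is near 0 outside Aged, and the Lifr libraries scatter widely.

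The libraries also differed in markers of leukocytes. The summed level of 12 monocyte and macrophage markers was 44.2 to 53.2 CPM in Young, 4828 to 4895 CPM in Aged and 147 to 167 CPM in the PDK4-IN group, and 4, 12 and 10 of the 12 reached a mean of 1 CPM in these groups. The marker C1qc was at 0 in Young. The 6 neutrophil markers summed to 8.87 to 11.1 CPM, 139 to 146 CPM and 60.4 to 77.6 CPM, with Retnlg at 0 in Young. They did not move together: S100a8 was at 9.20 ± 1.20, 38.0 ± 3.62 and 65.6 ± 8.13 CPM and made up most of the PDK4-IN sum, whereas Mmp8 (0.326, 95.7 and 1.84 CPM) and Csf3r (0.0478, 7.68 and 0.0997 CPM) were high in Aged alone. The 6 T and NK cell markers summed to at most 1.58 CPM in any library, with Nkg7 at 0 in all. Fibroblast markers were high in all groups (9432 to 12160, 9220 to 9368 and 9747 to 11410 CPM), with 9 of 10 at 1 CPM or more and Tcf21 at 0 in Aged, and smooth muscle and pericyte markers were higher in Young (2118 to 2269 CPM) than in Aged (530 to 543 CPM) and the PDK4-IN group (552 to 562 CPM). In the order Young, Aged and PDK4-IN, the 8 endothelial markers summed to 16.6 to 17.1, 30.8 to 33.4 and 22.7 to 25.2 CPM. The 6 alveolar type 1 markers summed to 781 to 803, 650 to 655 and 716 to 724 CPM, and 5 of 6 reached a mean of 1 CPM in each group. The 6 alveolar type 2 markers summed to 52.2 to 79.2 CPM, but only 1 of 6 reached a mean of 1 CPM in each group. Sftpb was at 0 in Young, and Sftpa1 was at 0 in Young and in the PDK4-IN group. The macrophage sum, like Il6, Lif, Osm and Socs3, was highest in Aged, and its part in their changes was not tested. In these bulk samples fewer cells of a type and less RNA per cell cannot be told apart.

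The genes whose profile over the 9 libraries was most like that of a member were found by Pearson correlation of log2(CPM + 1) among 11385 genes, as a description, since the 9 points fall in 3 groups and all genes of a library share its depth. For Socs3 they included Nlrp3 (r = 0.9987) and Lpxn (0.9980), and 528 genes reached 0.95. Il6 was nearest to Arrb2 (0.9967), Milr1 (0.9956) and Il10ra (0.9954), with 427 genes at 0.95 or more, and Osm to Coro2a (0.9872), Pira2 (0.9845) and Fmnl1 (0.9834), with 360. For Lif the nearest were Ralgapa2 (0.9864), Tgfbr1 (0.9853) and Ddhd1 (0.9850), with 162. Osmr was nearest to Six4 (0.9807), Ulk1 (0.9683) and Mfap3l (0.9647), and only 6 genes reached 0.95. Several of the genes near Socs3, Il6 and Osm were low outside Aged. Il10ra, an interleukin 10 receptor chain, had 0.0155 ± 0.0268 CPM in Young, 19.0 ± 0.590 CPM with age and 0.299 ± 0.345 CPM under PDK4-IN. Tgfbr1, the type I TGF-beta receptor near Lif, was expressed in all groups (24.7 ± 2.08, 41.0 ± 1.45 and 25.8 ± 2.95 CPM).

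The remaining genes of the pathway were followed in 6 lists of 61 genes. Of the 58 tested in Aged against Young, 28 rose and 6 fell, with a median log2 fold change of 0.16. In the PDK4-IN group against Aged, 9 of 57 rose and 28 fell (median -0.20). In the PDK4-IN group against Young, 12 of 58 rose and 11 fell (median 0.00). These counts include Ebi3 and, for age, Cntf, which passed the filter through 1 group. Without them they were 27 and 5 of 56, 9 and 27 of 56, and 11 and 11 of 57. Over all genes tested, 21.4% were higher and 19.0% lower with age. The shares were 23.9% and 25.7% for the PDK4-IN group against Aged, and 13.3% and 15.7% for it against Young.

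Of the other gp130-related ligands and receptors, 3 of 8 rose and 3 fell with age, and 2 of 7 rose and 1 fell with PDK4-IN. These counts include Ebi3 and, for age, Cntf, which passed the filter through 1 group and had to differ. The 1 gene that fell with PDK4-IN was Ebi3. Of all genes tested, 21.4% rose and 19.0% fell with age, and 23.9% rose and 25.7% fell with PDK4-IN. Ebi3, the subunit that interleukin 27 shares with interleukin 35, was nearly absent from Young (1, 0 and 3 counts), reached 20.9, 22.8 and 21.8 CPM in Aged and was at 0.460, 0.352 and 0.395 CPM in the PDK4-IN group. The ratio of Aged to Young was 331 (95% exact counting interval 129 to 1220, from 1537 counts against 4). Like Osm, Ebi3 passed the filter through Aged alone, so its calls are not given as support. The receptor chain of IL-11 moved the other way: Il11ra1 was at 91.1 ± 9.74 CPM in Young, fell to 68.5 ± 2.02 CPM in Aged (log2 fold change -0.42 ± 0.08, adjusted p = 0.00154) and rose to 103.1 ± 11.2 CPM with PDK4-IN (0.60 ± 0.08, adjusted p = 1.2e-04). Cntfr, the ciliary neurotrophic factor receptor, rose with age from 2.50 ± 0.542 to 5.80 ± 0.261 CPM (adjusted p = 4.9e-04) and stayed above Young with PDK4-IN (4.79 ± 0.280 CPM, adjusted p = 0.00241). Cntf itself was at 1.44 ± 0.693 CPM in the Young libraries and 0.179 ± 0.0250 CPM in the Aged ones, and passed the filter of that comparison through Young alone.

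Among 11 receptor kinases and signal carriers, 3 rose and 1 fell with age, and with PDK4-IN none rose and 8 fell (median log2 fold change -0.30). None rose at an unadjusted p under 0.05 in edgeR, or at an adjusted p under 0.05 with DESeq2 or limma. The shares of all genes tested that rose and fell were 21.4% and 19.0% with age, and 23.9% and 25.7% with PDK4-IN. Of the kinases bound to gp130, Jak2 rose with age from 53.6 ± 3.16 to 75.9 ± 1.88 CPM (adjusted p = 1.3e-04) and fell to 51.0 ± 6.06 CPM (adjusted p = 1.1e-04), and Tyk2 took the same course (31.2 ± 1.22, 40.8 ± 2.00 and 31.7 ± 2.04 CPM, adjusted p = 0.00145 and 0.00150). Jak1 had 347.5 ± 27.9 CPM in the Young and 342.1 ± 3.42 CPM in the Aged libraries (adjusted p = 0.677) and fell to 290.8 ± 23.1 CPM with PDK4-IN (adjusted p = 0.00465). Stat3, the main carrier of the signal, differed little: it had 210.6 ± 11.9 CPM in Young, 224.3 ± 6.46 CPM in Aged (adjusted p = 0.300) and 201.3 ± 13.3 CPM after PDK4-IN (adjusted p = 0.0368), and the latter call was lost in 9 of 15 alternatives, including those without any 1 library other than PDK4-IN 1 (adjusted p from 0.0549 to 0.136). The adaptor Grb2 rose with age (97.8 ± 3.39 to 137.1 ± 2.63 CPM, adjusted p = 5.2e-05) and fell with PDK4-IN (103.0 ± 2.23 CPM, adjusted p = 5.9e-05). The phosphatase Ptpn11, which carries the signal to the MAP kinases, was lower in Aged than in Young (346.5 ± 13.3 against 400.6 ± 37.4 CPM, adjusted p = 0.0249). This call was lost without any 1 library other than Young 3 (0.0558 to 0.104) and with limma on log2(TPM + 1) (0.237).

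Of 8 other inhibitors of JAK and STAT signalling, 4 rose and 1 fell with age and 1 rose and 3 fell with PDK4-IN. Over all genes tested, the shares were 21.4% and 19.0% with age, and 23.9% and 25.7% with PDK4-IN. Socs1, the relative of Socs3, went from 8.77 ± 0.714 CPM in Young to 14.0 ± 1.42 CPM in Aged (adjusted p = 8.1e-04) and 9.45 ± 1.45 CPM with PDK4-IN (adjusted p = 0.00440). Ptpn6, the phosphatase SHP-1 of blood cells, rose from 1.06 ± 0.319 to 44.5 ± 1.53 CPM (adjusted p = 3.2e-10) and fell to 1.98 ± 0.502 CPM (adjusted p = 1.3e-10). Pias3, an inhibitor of STAT3, took the opposite course (50.1 ± 2.69, 43.5 ± 2.60 and 51.1 ± 0.820 CPM, adjusted p = 0.0319 and 0.00838). The first call was lost without Young 2, Aged 1 or Aged 2 (0.0898 to 0.145) and with limma on log2(TPM + 1) (0.326). The second was lost without Aged 1 (0.0547) and with limma on log2(TPM + 1) (0.570).

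The 20 STAT3 target genes, named as such from work in other tissues, did not all follow Socs3. With age 12 rose and none fell (median log2 fold change 0.30). None fell with age at an unadjusted p under 0.05 in edgeR, or at an adjusted p under 0.05 with DESeq2 or limma. With PDK4-IN, by contrast, 6 rose and 8 fell (median -0.05), and 9 were higher and 3 lower than in Young (median 0.27). Over all genes tested, the shares higher and lower were 21.4% and 19.0%, 23.9% and 25.7%, and 13.3% and 15.7% in this order. Pim1, a survival kinase, followed Socs3 (17.8 ± 1.38, 38.6 ± 3.27 and 22.8 ± 0.294 CPM; adjusted p = 3.5e-06 with age and 1.6e-05 with PDK4-IN), and so did Vegfa, the vascular growth factor (96.0 ± 2.62, 141.2 ± 5.95 and 107.4 ± 3.82 CPM; adjusted p = 2.5e-05 and 1.5e-04). Lcn2, the iron-binding acute-phase protein lipocalin 2, rose with age and rose further with PDK4-IN: it was at 276.1, 266.6 and 292.4 CPM in Young, at 696.9, 684.8 and 701.8 CPM in Aged and at 906.5, 991.9 and 1036 CPM in the PDK4-IN group. Its 3 groups did not overlap, and its log2 fold changes were 1.31 ± 0.05 with age (adjusted p = 8.6e-09) and 0.50 ± 0.06 with PDK4-IN (adjusted p = 3.3e-05).

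The acute-phase gene Saa3 likewise rose with age (1174 ± 114 to 3228 ± 107 CPM, adjusted p = 4.1e-08). Its further rise to 3905 ± 553 CPM with PDK4-IN was called (log2 fold change 0.28 ± 0.09, adjusted p = 0.0188). The call was lost in 4 of 15 alternatives, among them those without Aged 2, Aged 3 or PDK4-IN 2 (0.0622 to 0.0781). In 1 more, with the gene-length trend removed, the change turned to -0.05 (adjusted p = 0.287). Cebpd, a transcription factor of the acute phase, had 122.3 ± 13.8 CPM in Young against 136.9 ± 4.30 CPM in Aged (adjusted p = 0.153), and rose to 198.0 ± 7.58 CPM with PDK4-IN (adjusted p = 1.1e-05). Without Young 3 the age difference was called too (log2 fold change 0.24, adjusted p = 8.0e-05). The 4 genes called higher in all 3 comparisons were Lcn2, Saa3, Mt2 and Timp1; Mt2, a metallothionein, and Timp1, a metalloproteinase inhibitor, are named after their values were seen. Mt2 was at 97.2 ± 9.05, 187.1 ± 6.90 and 248.8 ± 21.0 CPM and Timp1 at 624.4 ± 73.8, 733.6 ± 8.75 and 1029 ± 106 CPM, in the order Young, Aged, PDK4-IN.

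**Figure D4:**
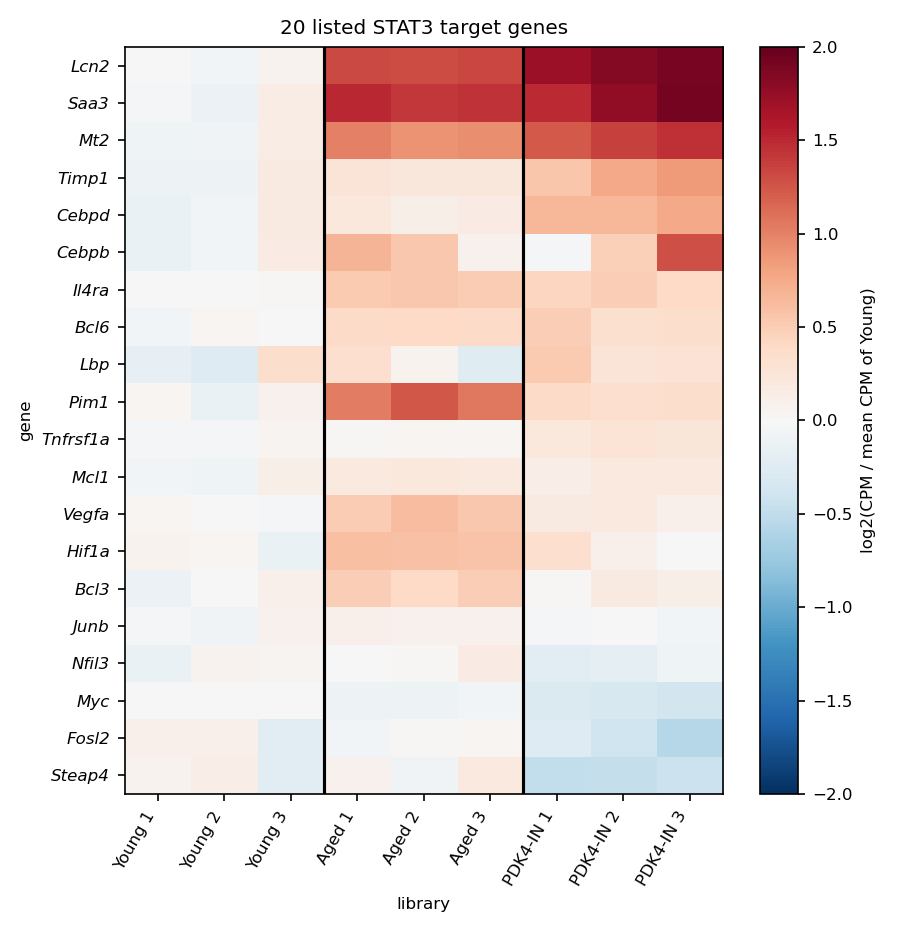
Level of the 20 STAT3 target genes (rows) in each of the 9 libraries (columns), as log2 of CPM over the mean CPM of Young, from blue (lower) to red (higher). Rows are ordered by the mean of the PDK4-IN libraries. Lcn2, Saa3, Mt2 and Timp1 at the top are highest in the PDK4-IN group, whereas Pim1, Vegfa, Hif1a and Bcl3 are highest in Aged.

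Both proteases that can shed the IL-6 receptor fell with PDK4-IN, as did 25.7% of all genes tested. Adam17 went from 72.1 ± 3.80 CPM in Young to 122.6 ± 3.89 CPM in Aged (adjusted p = 3.2e-06) and back to 76.0 ± 5.68 CPM (adjusted p = 4.0e-06), and Adam10 was at 131.4 ± 15.7, 143.1 ± 2.71 and 108.1 ± 10.2 CPM, with only the fall from Aged (adjusted p = 3.7e-04) and the difference between the PDK4-IN group and Young (adjusted p = 0.0160) called. The latter was lost in 5 of 15 alternatives, among them those without Young 1, PDK4-IN 2 or PDK4-IN 3 (0.0582 to 0.0679).

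Of 9 regulators of Il6 mRNA, 5 rose and 1 fell with age, and with PDK4-IN none rose and 6 fell (median -0.28). With PDK4-IN 0 rose at an unadjusted p under 0.05 in edgeR, or at an adjusted p under 0.05 with DESeq2 or limma. Among all genes tested, 21.4% rose and 19.0% fell with age, and 23.9% rose and 25.7% fell with PDK4-IN. Zc3h12a, the endonuclease Regnase-1 that destroys Il6 mRNA, rose with Il6 from 70.2 ± 2.09 to 104.7 ± 2.23 CPM (adjusted p = 1.7e-05) and fell to 74.2 ± 3.54 CPM (adjusted p = 2.7e-05). Nfkbiz, the nuclear IkB protein needed for Il6 transcription in macrophages, took the same course (114.5 ± 3.60, 171.6 ± 4.93 and 124.9 ± 11.5 CPM, adjusted p = 1.1e-05 and 1.6e-04). Zfp36, the mRNA-destabilising protein tristetraprolin, rose with age (30.4 ± 1.56 to 38.5 ± 1.27 CPM, adjusted p = 0.00362) and with PDK4-IN fell to 22.0 ± 1.85 CPM (adjusted p = 9.3e-06), below Young as well (adjusted p = 6.0e-04). Its relative Zfp36l2 was lower in each step (193.6 ± 7.12, 172.9 ± 5.92 and 142.0 ± 4.24 CPM, adjusted p = 0.0227 and 9.7e-04). The first call was lost without Young 1, Young 2, Aged 1 or Aged 3 (0.0504 to 0.102) and with limma on log2(TPM + 1) (0.188).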

How the data were processed

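Per the labels, RNA of laser-captured mouse alveolar cells was made into TruSeq libraries. The submitters' processing notes name Bowtie 0.12.2 and GRCm39 (mm39); the study's methods name RSEM and a human annotation for its human cells, and the quantifier and annotation of these mouse libraries are not given in the sources used here. The authors deposited estimated counts and TPM per gene (11.7 to 14.5% of the values per library, zeros included, are not whole) together with a listed gene length, in 2 tables that share the Aged libraries. Sheet names inside the tables mention bleomycin, a control and another compound, whereas the column names and labels give Young, Aged and PDK4-IN. The groups rest on the column names and labels, and the reason for the mismatch is not known. The deposited fold changes and p-values hold the authors' own comparisons and were left aside.

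The estimated counts were rounded, filtered (filterByExpr), scaled by TMM and tested with the edgeR 4.0.16 quasi-likelihood test in R 4.3.3 (glmQLFit, glmQLFTest; group only). P-values were adjusted by Benjamini-Hochberg over all genes tested and called under 0.05. The 2 comparisons with Aged used their 6 libraries, and the PDK4-IN group against Young used all 9. The SE is the log2 fold change over the square root of F. The alternatives were other scaling, no filter, DESeq2 1.42.0, limma 3.58.1 on log2(TPM + 1), another set of libraries in the fit, a replicate block, each library left out, and, added after seeing the data, removal of the gene-length trend. The test was tried on simulated data.

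Named were all members, Jak1, Jak2, Tyk2 and Stat3, up to 2 genes per pathway list and direction with the lowest p in each of the first 2 comparisons, and the 3 genes most like Il6, Osm, Lif, Osmr and Socs3 among those with a mean of at least 5 CPM; some genes that this rule takes are not reported here. The members and the lists were chosen with earlier results of these data known.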

Additional observations from a re-analysis of the deposited data

How the results depend on the processing

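The count of members called higher in Aged against Young was 5, and 3 with limma on log2(TPM + 1). The count called lower was 2; it was 1 with library totals as the only scaling and with DESeq2, 0 with limma on log2(TPM + 1), and 1 to 2 when a library was left out. Pathway genes called lower in that comparison numbered 6, 3 with limma on log2(TPM + 1), and 3 to 9 when a library was left out (3 without Young 2 and without Aged 1). Pathway genes called higher in the PDK4-IN group against Aged numbered 9, and 5 with limma on log2(TPM + 1). Members called higher in the PDK4-IN group against Young numbered 1, and 2 with upper quartile scaling and with the gene-length trend removed, 0 with limma on log2(TPM + 1), with no filter on low counts and with only the 6 libraries of the 2 groups, and 0 to 1 when a library was left out. The log2 ratio of the group means of Lifr, Aged to Young, turned to 0.0388 on the TPM scale, and the rise of Saa3 with PDK4-IN turned to -0.0454 with the gene-length trend removed. The causes were not tested. The other main counts stayed within 1.5 times.

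Replicate numbers gave no clear sign of pairing: the correlation of same-numbered deviations ran from -0.04 to 0.182. With 3 libraries per group this cannot settle whether the libraries were paired. With the replicate block, members called lower in Aged against Young numbered 1 instead of 2, because the adjusted p of Il11 was then 0.0530. The other counts of members and pathway genes stayed within 1.5 times. Osm rests on 1 count in Young and 4 in the PDK4-IN group, which limits how well its fold is known.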
